A study of Mus musculus with 6 samples.

Results

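The genes described here make and handle sterols and fatty acids. They were followed in mouse fibroblast-like synoviocytes, the lining cells of the joint, after forced expression of Epas1, which encodes a hypoxia-inducible transcription factor. The list named 40 genes, 28 on the sterol side and 12 on the fatty acid side, and a gene entered when a probe set carried its symbol alone. It thereby held 36 of the 22180 genes measured, 25 for sterols and 11 for fatty acids. Idi1, Acat2, Scd2 and Soat1 were not analysed here. The cells came from knee synovium of C57BL6 mice, freed with collagenase for 4 h and used at passages 4 to 8. Both groups were exposed to adenovirus for 2 h (multiplicity of infection 800) and then cultured for 24 h. The virus was empty in the 3 Mock samples and carried Epas1 in the 3 Ad-Epas1 samples. The design text calls the 3 samples of each group biological replicates. The promoter that drove Epas1 is not given in the labels, nor is whether the replicates were separate animals or cultures. The p-values therefore reflect only how these particular samples spread, and whether that spread covers separate animals is not known. Total RNA was read on whole-transcript arrays, 1 array a sample. With 3 arrays a group, it is the number of arrays that sets the precision.

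Cells make cholesterol by condensing acetyl-CoA into mevalonate, joining isoprenoid units into squalene and then closing and trimming the ring system. Fatty acids start from the same acetyl-CoA, are built to palmitate by fatty acid synthase and are then lengthened by elongases and given double bonds by desaturases. The SREBP transcription factors, which Scap carries to the Golgi and Insig proteins hold back when sterols are plentiful, drive both branches, and hydroxylated sterols (oxysterols) feed back on this control.

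Epas1 checked the labels. Its log2 level was 8.67, 8.71 and 8.51 on the Mock arrays and 13.14, 13.15 and 13.11 on the Ad-Epas1 arrays, a 22.6-fold rise (limma, adjusted p = 4.6e-06) or 4.50 on the log2 scale (SE 0.08). Ad-Epas1 replicate 3 stood apart from the other 5 arrays in macrophage transcripts. The log2 of the summed level of 21 macrophage markers was 15.6 to 15.9 on the 3 Mock arrays, 15.8 and 15.6 on Ad-Epas1 replicates 1 and 2, and 11.99 on replicate 3. Lyz2, the lysozyme of macrophages, lay at 12.75 to 12.94 on the Mock arrays, 12.86 and 12.78 on replicates 1 and 2, and 7.15 on replicate 3. On that array 8 of the 21 markers lay below 6.62, the 95th percentile of 1390 olfactory and vomeronasal receptor genes, while Cd163 was below it on all 6. The labels report few CD14-positive cells by flow cytometry, while Cd14 read 10.42, 9.99 and 10.14 in Mock. In bulk RNA, fewer cells of a type and less RNA per cell cannot be told apart. The 13 fibroblast markers had a summed level of 15.77 to 15.82 in Mock and 15.65, 15.66 and 15.83 in Ad-Epas1. Of these markers 2 rose (Pdpn and Prg4) and 3 fell (Col3a1, Pdgfrb and Cdh11), against 6.57% and 9.75% of all genes. Without Ad-Epas1 replicate 3, 2 rose and 6 fell, against 10.3% and 14.0% of all genes. Col1a1, Col1a2, Col3a1 and Thy1 were low on replicates 1 and 2 and nearer to Mock on replicate 3, as with Thy1 at 11.17, 11.06 and 11.06 in Mock and 10.40, 10.60 and 10.98 in Ad-Epas1. Other markers differed. Pdpn and Prg4 lay above Mock on every Ad-Epas1 array, Lum rose above Mock on replicate 3 (11.75), and Fap was lowest on replicate 3 (6.61). Counts over the sterol, fatty acid and wider lists are therefore given with and without Ad-Epas1 replicate 3. So are the log2 changes of those of the 36 genes that were called in either comparison. Other genes are given with all arrays unless stated. The part of macrophage or fibroblast RNA in these results was not tested.

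With Epas1, 1 of 16 sterol synthesis enzymes rose (Sqle), 3 of 6 genes that desaturate and lengthen fatty acids fell (Elovl6, Fads2 and Elovl5) and 2 of 3 sterol hydroxylases fell (Ch25h and Cyp27a1). Over the 25 sterol genes there were 1 rise and 3 falls, and 21 had an adjusted p of 0.05 or more. Over the 11 fatty acid genes there were 0 rises and 4 falls. At an unadjusted p under 0.05 the limma fit gave 1 higher and 5 lower, against 3612 higher and 3602 lower of all 22180 genes. At the adjusted threshold 6.57% of all 22180 genes rose and 9.75% fell. A further quantile step moved the split over all genes from 1458 rising and 2162 falling to 1913 and 1731. The median log2 fold change was -0.08 for the sterol genes, -0.35 for the fatty acid genes and 0.05 for all genes. The sterol median turned to 0.03 after that quantile step and also without Ad-Epas1 replicate 1. Groups were fully apart for 4 sterol and 6 fatty acid genes, against 39.7% of all genes. Without Ad-Epas1 replicate 3, 1 sterol gene rose and 8 fell, and 6 fatty acid genes fell. The same reduced comparison called 10.3% of all genes higher and 14.0% lower. Its medians were -0.26 for sterol genes, -0.55 for fatty acid genes and 0.03 for all genes. The calls also leaned on other single arrays. The count over all genes, 3620 with all arrays, dropped in the same fits. Without Mock replicate 2 or Mock replicate 3 the sterol count dropped to 2, against 1187 and 1181 of all genes. The fatty acid count dropped to 2 without Ad-Epas1 replicate 1, against 2186 of all genes. It dropped to 0 when Mock replicate 2, Mock replicate 3 or else Ad-Epas1 replicate 2 was omitted, against 1187, 1181 and 1512 of all genes. In those fits limma still had 5, 5 and 6 genes at an unadjusted p under 0.05, against 5429, 5267 and 5924 of all genes.

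**Figure D1:**
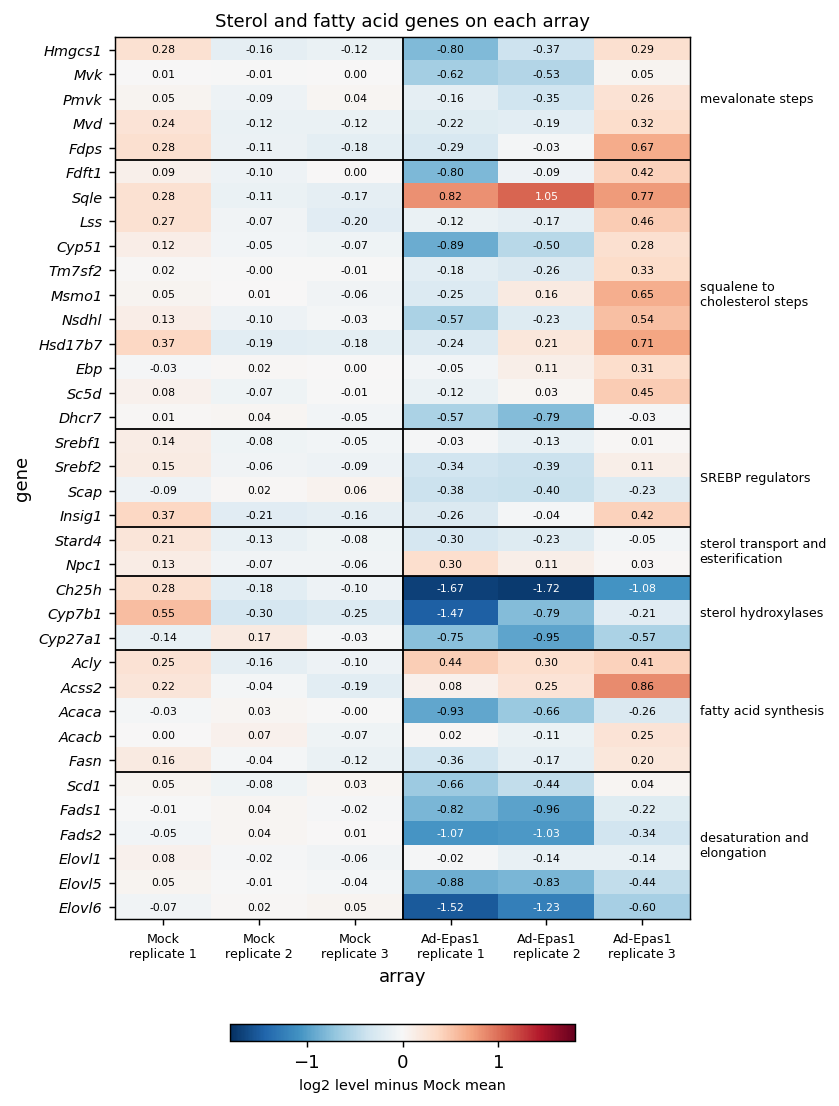
Heat map of the log2 level of each of the 36 genes (rows, ordered by role) on each of the 6 arrays (columns), minus the mean of the 3 Mock arrays, with the value printed in each cell. Ch25h, Elovl6 and Fads2 are blue on all 3 Ad-Epas1 arrays, Sqle is red on all 3, and most sterol synthesis enzymes are blue on replicates 1 and 2 and red on replicate 3.

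None of the 5 mevalonate genes passed the limma test with all arrays, nor did any have an unadjusted p under 0.05. Hmgcs1, which makes HMG-CoA from acetyl-CoA units, read 9.99, 9.55 and 9.59 in Mock and 8.91, 9.34 and 10.001 in Ad-Epas1. Replicates 1 and 2 lay below every Mock array and replicate 3 above every Mock array, so the groups overlapped, and the log2 difference of -0.29 (SE 0.27, adjusted p = 0.497) did not pass. Without replicate 3 the difference was -0.59 (adjusted p = 0.0566). Mvk, mevalonate kinase, read 8.75, 8.73 and 8.74 in Mock and 8.12, 8.21 and 8.79 in Ad-Epas1. Its Mock arrays were nearly equal (SD 0.01), replicates 1 and 2 lay well below them and replicate 3 just above. Its log2 difference was -0.36 (SE 0.17, adjusted p = 0.194). Mvk fell by 0.57 on the log2 scale without replicate 3 (adjusted p = 0.00232), as the only mevalonate gene of 5 to be called in that comparison. Pmvk and Mvd, which phosphorylate and decarboxylate the next intermediates, and Fdps, which joins isoprenoid units into farnesyl pyrophosphate, had log2 differences of -0.09, -0.03 and 0.11 with adjusted p from 0.734 to 0.921. Without replicate 3 these were -0.26, -0.21 and -0.16 (adjusted p from 0.0898 to 0.505). Mvd, for example, read 8.83, 8.47 and 8.46 in Mock and 8.37, 8.40 and 8.91 in Ad-Epas1, with replicate 3 again the highest of all 6 arrays.

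Of the 11 genes from squalene to cholesterol, Sqle alone passed the test with all arrays. Sqle encodes squalene epoxidase, the oxygen-requiring step that commits squalene to the sterol ring and a flux-controlling enzyme of the pathway. Its level was 9.76, 9.37 and 9.32 in Mock and 10.30, 10.54 and 10.25 in Ad-Epas1. All 3 Ad-Epas1 arrays exceeded all 3 Mock arrays, and Mock replicate 1 was the nearest to them. The rise of Sqle was 1.84-fold (0.88 on the log2 scale, SE 0.14, adjusted p = 0.0097), and without replicate 3 the log2 fold change was 0.93 (adjusted p = 0.00632). The call was lost without Mock replicate 2 (adjusted p = 0.0513).

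Cyp51, the lanosterol demethylase, read 9.0045, 8.84 and 8.81 in Mock and 7.99, 8.39 and 9.17 in Ad-Epas1. The 3 Ad-Epas1 arrays spread on both sides of Mock, and the log2 difference was -0.37 (SE 0.28, adjusted p = 0.396). Without replicate 3 Cyp51 fell by 0.70 on the log2 scale (adjusted p = 0.011). Dhcr7, which carries out the last reduction to cholesterol, read 8.33, 8.36 and 8.27 in Mock and 7.75, 7.53 and 8.29 in Ad-Epas1. Replicates 1 and 2 were low and replicate 3 lay within the Mock range. The log2 difference was -0.46 (SE 0.18, adjusted p = 0.139), and without replicate 3 Dhcr7 fell by 0.68 (adjusted p = 0.00307). Cyp51 and Dhcr7 were the genes of these steps that fell in the reduced comparison, in which Sqle still rose.

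The other 8 genes of these steps did not pass with or without replicate 3. They were Fdft1 (squalene synthase), Lss (lanosterol synthase, which closes the rings), Tm7sf2 (a sterol reductase), Msmo1, Nsdhl and Hsd17b7 (which together remove the methyl groups), Ebp (an isomerase) and Sc5d (a desaturase). Their log2 differences lay between -0.16 for Fdft1 and 0.22 for Hsd17b7. Without replicate 3 they lay between -0.45 for Fdft1 and 0.03 for Ebp. The widest spread was that of Fdft1, which read 11.22, 11.04 and 11.14 in Mock and 10.33, 11.04 and 11.55 in Ad-Epas1. Nsdhl read 10.39, 10.17 and 10.23 in Mock and 9.69, 10.03 and 10.80 in Ad-Epas1, with replicate 3 above every Mock array and replicates 1 and 2 below. Ebp differed least among the Ad-Epas1 arrays of these 8 genes, at 9.48, 9.64 and 9.85 against 9.51, 9.56 and 9.54 in Mock.

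Ad-Epas1 replicate 3 was the highest of the Ad-Epas1 arrays for 15 of the 16 sterol synthesis enzymes, Sqle being the exception, against 45.0% of all genes. In those 15 it exceeded the mean of replicates 1 and 2 by 0.28 to 0.98 on the log2 scale (median 0.65), while the median over all genes was 0.04. This order was not particular to the enzymes. Replicate 3 was also highest for 9 of 11 fatty acid genes, 5 of 6 desaturation and elongation genes and 3 of 3 sterol hydroxylases. The median excess was 0.63 for desaturation and elongation and 0.62 for the hydroxylases. In the wider lists it was highest for 13 of 27 sterol and 14 of 38 fatty acid genes. Replicate 3 lay above the Mock mean for 15 of the 16 enzymes, all but Dhcr7, against 58.8% of all genes. The mean of replicates 1 and 2 lay below the Mock mean for 14 of the 16, against 43.5% of all genes. The Mock arrays differed less, although Mock replicate 1 was the highest of them for 14 of the 16 enzymes, against 42.3% of all genes. The SD over the Ad-Epas1 arrays had a median of 0.38 across the 16 enzymes, and the SD over the Mock arrays had one of 0.10. The median position of the 16 enzymes relative to the Mock mean was -0.25, -0.18 and 0.38 on Ad-Epas1 replicates 1, 2 and 3. The same array was the one low in macrophage transcripts, with a median of -3.81 relative to Mock over the 21 macrophage markers against 0.00 and -0.19 on replicates 1 and 2. Because the counts of high and low arrays describe a pattern noticed in these same arrays, no test was made of it.

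**Figure D2:**
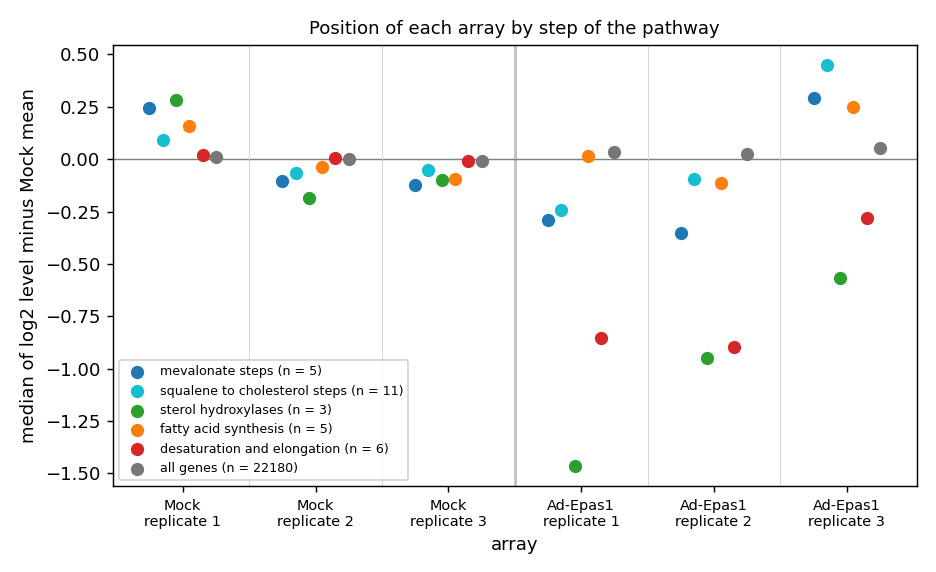
Median over the genes of each pathway step of the log2 level minus the Mock mean (vertical axis), on each array (horizontal axis), 1 coloured point a step, with all 22180 genes in grey. On Ad-Epas1 replicate 3 the mevalonate, squalene to cholesterol and fatty acid synthesis points lie above 0. On all 3 Ad-Epas1 arrays the points for sterol hydroxylases and for desaturation and elongation lie below 0.

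The upstream stretches of some of these genes are shown because 13 of the 16 sterol synthesis enzymes have an entry in the promoter table and all 13 share a short sequence there. Sqle, the only enzyme of the 16 not highest on replicate 3 among the Ad-Epas1 arrays, has no entry. The 13 therefore all share that array pattern and cannot show whether the sequence goes with it, which was not tested. RefSeq (GRCm38.p6) gave a promoter for 28 of the 36 genes. The 250 bases before each start were searched on both strands. CCAAT occurred upstream of all 13 enzymes, of 17 of 19 sterol genes and of 5 of 9 fatty acid genes, against 37.5% of 26994 genes. A strict spelling of the sterol regulatory element, TCACNCCAC, was found for Hmgcs1 alone among the 28 genes and for 1.23% of all genes. Its looser form TCANNCCAC, which contains the former, was found for Hmgcs1, Acly and Acacb and for 4.06% of all genes. The E-box CACGTG, which contains the hypoxia element core ACGTG, was upstream of 6 genes (Hsd17b7, Sc5d, Dhcr7, Scap, Insig1 and Elovl5) and 6.86% of all genes. ACGTG was upstream of 8 genes and 18.5% of all genes, and the other form of that core, GCGTG, of 15 genes and 30.8% of all genes. A match is a run of letters and not a measured binding site, and elements spelled otherwise or lying farther away were not searched. The 200 bases before the start are printed 5′ to 3′ on the gene's strand, with capitals for TCANNCCAC, CACGTG and CCAAT, which reads as ATTGG when it lies on the other strand. Hmgcs1 (chr13:119690151-119690350, plus strand) holds both a sterol element and CCAAT. Cyp51 (chr5:4104698-4104897, minus strand) and Msmo1 (chr8:64733579-64733778, minus strand) show CCAAT once and repeated. Elovl5 (chr9:77917165-77917364, plus strand) and Fads2 (chr19:10101504-10101703, minus strand) are shown as 2 of the 4 fatty acid genes that fell. Elovl5 holds CACGTG and CCAAT, while Fads2, like Elovl6 and Acaca, the other 2 that fell, holds none of the letters searched.
Hmgcs1: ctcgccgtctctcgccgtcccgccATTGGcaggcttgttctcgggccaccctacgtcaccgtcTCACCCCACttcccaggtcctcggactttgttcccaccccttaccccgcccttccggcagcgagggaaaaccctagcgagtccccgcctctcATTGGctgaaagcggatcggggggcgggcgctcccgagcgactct
Cyp51: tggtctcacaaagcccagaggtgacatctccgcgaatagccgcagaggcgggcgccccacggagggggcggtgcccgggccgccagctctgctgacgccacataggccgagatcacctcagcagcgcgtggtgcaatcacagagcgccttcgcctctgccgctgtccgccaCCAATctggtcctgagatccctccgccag
Msmo1: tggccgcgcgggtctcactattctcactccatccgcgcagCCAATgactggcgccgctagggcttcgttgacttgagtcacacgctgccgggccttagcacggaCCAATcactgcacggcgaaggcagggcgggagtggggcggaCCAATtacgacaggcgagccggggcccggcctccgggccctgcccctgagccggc
Elovl5: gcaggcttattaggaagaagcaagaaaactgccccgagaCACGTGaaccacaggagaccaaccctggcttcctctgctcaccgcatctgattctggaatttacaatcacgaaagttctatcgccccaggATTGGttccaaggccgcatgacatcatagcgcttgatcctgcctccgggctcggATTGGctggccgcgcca
Fads2: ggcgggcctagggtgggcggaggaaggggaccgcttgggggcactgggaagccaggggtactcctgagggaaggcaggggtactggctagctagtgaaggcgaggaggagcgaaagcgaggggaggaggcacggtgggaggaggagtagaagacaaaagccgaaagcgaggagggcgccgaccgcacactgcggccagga

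Among the 4 genes that encode the SREBPs or control their processing, Scap was the only one called with all arrays. Scap escorts the SREBP precursors from the endoplasmic reticulum to the Golgi. It read 9.48, 9.59 and 9.63 in Mock and 9.19, 9.17 and 9.34 in Ad-Epas1. No Ad-Epas1 array reached the Mock range, and Scap fell by 0.34 on the log2 scale (SE 0.08, adjusted p = 0.0331). Without Ad-Epas1 replicate 3 it fell by 0.39 (adjusted p = 0.0132). Omitting Mock replicate 2 or 3, or Ad-Epas1 replicate 1 or 2, ended the call (adjusted p = 0.124, 0.129, 0.0925 and 0.110), and a dimmer probe set of Scap gave 0.03 (adjusted p = 0.879). Srebf2, the factor that favours sterol genes, read 10.33, 10.12 and 10.09 in Mock and 9.84, 9.79 and 10.29 in Ad-Epas1. Its replicate 3 lay within the Mock range and the other Ad-Epas1 arrays below it, with a log2 difference of -0.21 (adjusted p = 0.371) that became a fall of 0.37 without replicate 3 (adjusted p = 0.0335). Srebf1, the factor that favours fatty acid genes, gave -0.05 (SE 0.09, 95% interval -0.25 to 0.16, adjusted p = 0.733). Insig1, the sterol-sensing retention protein and itself an SREBP target, gave 0.04 (SE 0.22, adjusted p = 0.914), and it was highest on Mock replicate 1 (11.06) and Ad-Epas1 replicate 3 (11.11). The 2 transport genes did not pass with or without replicate 3. Stard4, a carrier of free cholesterol, gave -0.20 (adjusted p = 0.289), and Npc1, which exports cholesterol from lysosomes, gave 0.15 (adjusted p = 0.352).

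The sterol hydroxylases were the group with the lowest median, -0.82 on the log2 scale over 3 genes, of which 2 fell. Ch25h, which makes an oxysterol that restrains SREBP processing, read 11.89, 11.42 and 11.51 in Mock and 9.93, 9.89 and 10.53 in Ad-Epas1. Every Ad-Epas1 array lay below every Mock array, and replicate 3 was the nearest to Mock. Ch25h fell by 1.49 on the log2 scale (2.81-fold lower, SE 0.20, adjusted p = 0.00587) and by 1.70 without replicate 3 (adjusted p = 0.00063). The call held whichever array was left out (adjusted p up to 0.0317), but a dimmer probe set of Ch25h gave -0.08 (adjusted p = 0.837).

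Cyp27a1, a mitochondrial sterol hydroxylase, read 8.11, 8.41 and 8.21 in Mock and 7.50, 7.29 and 7.68 in Ad-Epas1. Here too the groups were apart, and Cyp27a1 fell by 0.75 (1.69-fold lower, SE 0.12, adjusted p = 0.0109), a call lost without Mock replicate 3 (adjusted p = 0.0509). Without Ad-Epas1 replicate 3 it fell by 0.85 (adjusted p = 0.00332). Cyp7b1, which hydroxylates oxysterols further, read 9.81, 8.96 and 9.01 in Mock and 7.79, 8.48 and 9.05 in Ad-Epas1. Its Mock arrays were themselves uneven, replicate 3 of Ad-Epas1 lay among them, and the log2 difference of -0.82 (SE 0.36, adjusted p = 0.167) did not pass. Cyp7b1 fell by 1.13 without replicate 3 (adjusted p = 0.0396). Ch25h and Cyp27a1 are known to be expressed in macrophages as well. Of the 21 macrophage markers 4 fell with all arrays (Mrc1, C1qa, C1qc and Aif1), against 9.75% of all genes. Without replicate 3, 5 fell and 2 rose, against 14.0% and 10.3% of all genes. In that comparison Mrc1 fell by 2.36 and C1qa fell by 1.65 on the log2 scale. Cd14 rose by 1.48 (adjusted p = 0.00249) and Mpeg1 rose by 0.51 (adjusted p = 0.0347), while 14 of the 21 markers did not pass. The part of macrophage RNA in the lower levels of Ch25h and Cyp27a1 was not tested.

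**Figure D3:**
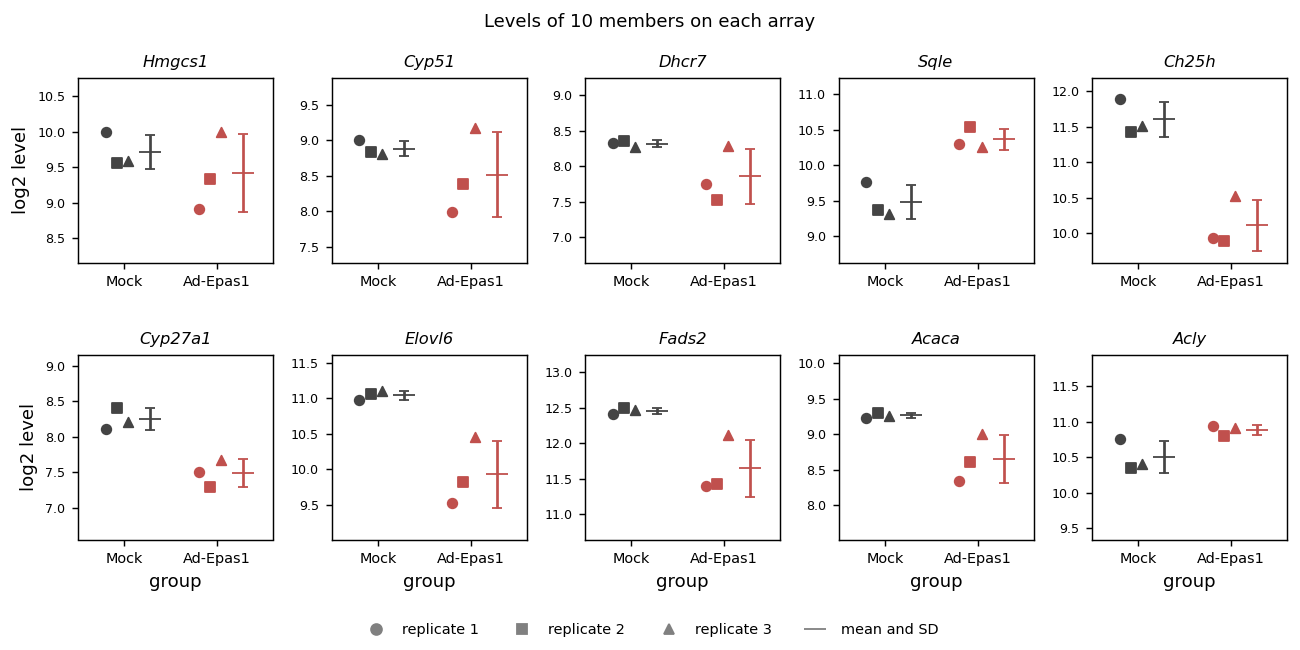
Log2 level (vertical axis) of 10 genes on each Mock (grey) and Ad-Epas1 (red) array, with marker shapes for replicates and a bar for the mean and SD over 3 arrays. All panels span the same number of log2 units, and the triangle of Ad-Epas1 replicate 3 lies among or above the Mock points for Hmgcs1, Cyp51 and Dhcr7 but below them for Ch25h, Cyp27a1, Elovl6, Fads2 and Acaca.

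Of the 5 genes that supply acetyl-CoA and build palmitate, Acaca alone was called. Acaca encodes acetyl-CoA carboxylase, the committed step of fatty acid synthesis. It read 9.24, 9.30 and 9.27 in Mock and 8.34, 8.60 and 9.01 in Ad-Epas1. The groups did not overlap, and Acaca fell by 0.62 on the log2 scale (1.54-fold lower, SE 0.16, adjusted p = 0.0457) and by 0.80 without Ad-Epas1 replicate 3 (adjusted p = 0.00218). Leaving out Mock replicate 1, 2 or 3, or else Ad-Epas1 replicate 1 or 2, ended the call (adjusted p = 0.0972, 0.144, 0.139, 0.0825 and 0.133). Acly, which cleaves citrate to acetyl-CoA in the cytosol, ran the other way, at 10.76, 10.34 and 10.41 in Mock and 10.94, 10.81 and 10.91 in Ad-Epas1. Its groups did not overlap, but the log2 difference of 0.38 (SE 0.12, adjusted p = 0.0747) did not pass. It passed without Mock replicate 1, the highest of the Mock arrays (0.51, adjusted p = 0.0173). Acss2, which makes acetyl-CoA from acetate, read 8.68, 8.41 and 8.27 in Mock and 8.53, 8.70 and 9.31 in Ad-Epas1, with replicate 3 far above the rest (log2 difference 0.40, SE 0.21, adjusted p = 0.245). Fasn, the synthase itself, gave -0.11 (SE 0.15, adjusted p = 0.658). Acacb, the mitochondrial carboxylase that limits fatty acid oxidation, lay at 6.76 to 7.13, just above the receptor-gene level of 6.62, and gave 0.05 (adjusted p = 0.769).

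Desaturation and elongation held 3 of the 4 fatty acid genes that fell. The 6 genes measured all had negative log2 differences, with a median of -0.69. Elovl6, which lengthens palmitate to stearate, read 10.97, 11.06 and 11.10 in Mock and 9.52, 9.81 and 10.45 in Ad-Epas1. All Ad-Epas1 arrays lay below all Mock arrays. Elovl6 fell by 1.11 on the log2 scale (2.16-fold lower, SE 0.22, adjusted p = 0.0187) and by 1.37 without replicate 3 (adjusted p = 0.00048). Elovl5, which lengthens polyunsaturated fatty acids, read 10.56, 10.50 and 10.47 in Mock and 9.63, 9.68 and 10.08 in Ad-Epas1. The groups were again apart, and Elovl5 fell by 0.71 (SE 0.12, adjusted p = 0.0129) and by 0.85 without replicate 3 (adjusted p = 0.00063). Neither elongase passed when Mock replicate 2, then Mock replicate 3, then Ad-Epas1 replicate 2 was left out (adjusted p = 0.0773, 0.0800 and 0.0758 for Elovl6 and 0.0596, 0.0558 and 0.0557 for Elovl5).

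Fads2 and Fads1 are neighbouring desaturases that put double bonds into polyunsaturated fatty acids. Fads2 read 12.41, 12.50 and 12.47 in Mock and 11.39, 11.43 and 12.11 in Ad-Epas1. The 2 groups were apart, with replicate 3 the nearest to Mock, and Fads2 fell by 0.81 on the log2 scale (1.75-fold lower, SE 0.19, adjusted p = 0.0331) and by 1.05 without replicate 3 (adjusted p = 0.00036). The call was lost without any 1 of the other 5 arrays, with adjusted p of 0.0762, 0.116 and 0.114 without Mock replicates 1 to 3 and 0.0890 and 0.110 without Ad-Epas1 replicates 1 and 2. Fads1 had the same shape, at 11.79, 11.84 and 11.78 in Mock and 10.98, 10.84 and 11.59 in Ad-Epas1. The groups were apart, yet its difference of -0.67 (SE 0.19, adjusted p = 0.0555) did not pass, and without replicate 3 Fads1 fell by 0.89 (adjusted p = 0.00069). Scd1, which introduces the double bond of oleate, read 11.25, 11.12 and 11.24 in Mock and 10.55, 10.77 and 11.25 in Ad-Epas1. Replicate 3 equalled Mock, the log2 difference was -0.35 (adjusted p = 0.209), and without replicate 3 Scd1 fell by 0.55 (adjusted p = 0.00763). Elovl1, which lengthens very long chains, gave -0.10 (SE 0.07, adjusted p = 0.394) and -0.08 without replicate 3 (adjusted p = 0.54).

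**Figure D4:**
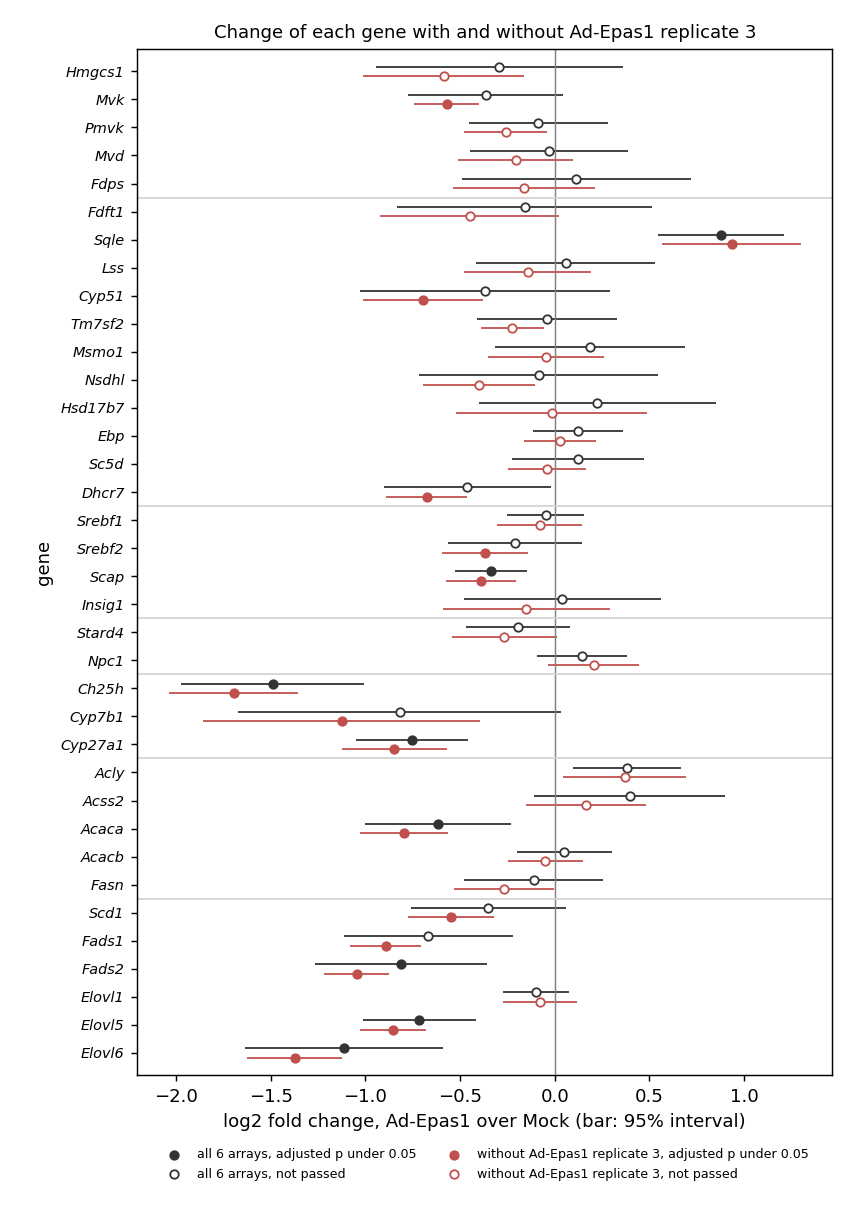
Log2 fold change of Ad-Epas1 over Mock (horizontal axis) for each of the 36 genes (rows, ordered by role), with 95% intervals, from all 6 arrays (black) and without Ad-Epas1 replicate 3 (red). Filled points have an adjusted p under 0.05, and the red point lies left of the black one for 33 of the 36 genes.

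In the desaturation and elongation group replicate 3 was on the median closer to Mock than replicates 1 and 2 were, but it lay below the Mock mean for 5 of the 6 genes, Scd1 being the exception, and the median position was -0.85, -0.90 and -0.28 on replicates 1, 2 and 3. The 3 sterol hydroxylases lay below the Mock mean on every Ad-Epas1 array, at medians of -1.47, -0.95 and -0.57. The difference between these groups and the sterol synthesis enzymes was not tested.

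A wider list of 37 sterol genes outside the set had 27 measured, with a median of -0.13. Of these 27, 5 rose (18.5%, against 6.57% of all genes), 3 fell (11.1%, against 9.75%) and 19 did not pass. Those that rose were Abca1, the cholesterol exporter (log2 fold change 0.76, adjusted p = 0.0142), Insig2, the partner of Insig1 (0.36, adjusted p = 0.0189), Scarb1, the lipoprotein receptor (0.45, adjusted p = 0.0363), Nus1, a dolichol synthesis subunit (0.43, adjusted p = 0.0448), and Hsd3b7, which acts on hydroxylated sterols (0.50, adjusted p = 0.0482). Gpr183, the receptor on immune cells for an oxysterol made through Ch25h and Cyp7b1, read 8.19, 7.93 and 8.06 in Mock and 7.37, 7.38 and 7.49 in Ad-Epas1. No values overlapped, and Gpr183 fell by 0.65 (SE 0.09, adjusted p = 0.00581), which held whichever array was left out (adjusted p up to 0.0351). Erlin1, which helps degrade the reductase of the mevalonate pathway, fell by 0.40 (adjusted p = 0.013), and Cyp39a1, an oxysterol hydroxylase, by 0.79 (adjusted p = 0.0133). Calls other than that of Gpr183 depended on single arrays. Abca1, Erlin1 and Cyp39a1 did not pass without Mock replicate 2 (adjusted p = 0.0687, 0.0692 and 0.0656), Mock replicate 3 (0.0598, 0.0661 and 0.0638) or Ad-Epas1 replicate 2 (0.0567, 0.0557 and 0.0573). Insig2, Nus1, Scarb1 and Hsd3b7 lost theirs when Mock replicate 2 or 3, or Ad-Epas1 replicate 1 or 2, was omitted, with adjusted p up to 0.0897, 0.156, 0.133 and 0.15, Scarb1 also without Mock replicate 1 and Hsd3b7 also without Ad-Epas1 replicate 3 (0.0534 and 0.0623). Without Ad-Epas1 replicate 3, 4 of the 27 rose (14.8%, against 10.3% of all genes) and 7 fell (25.9%, against 14.0%).

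A wider list of 40 fatty acid genes had 38 measured, with a median of 0.08. Of these 38, 3 rose (7.89%, against 6.57% of all genes), 5 fell (13.2%, against 9.75%) and 30 did not pass. Me1, malic enzyme, which supplies NADPH for synthesis, read 10.25, 10.09 and 10.11 in Mock and 10.68, 10.81 and 10.71 in Ad-Epas1. Again no values overlapped, and Me1 rose by 0.59 (SE 0.08, adjusted p = 0.00497), a call that held whichever array was left out (adjusted p up to 0.034). Hsd17b12, a reductase of the elongation cycle (0.41, adjusted p = 0.0171), and Aacs, which activates acetoacetate (0.31, adjusted p = 0.0446), also rose. Mecr, of mitochondrial fatty acid synthesis, fell by 0.48 (adjusted p = 0.0112), Gpam, the initial acyltransferase of glycerolipid synthesis, by 0.56 (adjusted p = 0.0349), and Acsl5, another synthetase, by 0.45 (adjusted p = 0.0446). Acss3, an acyl-CoA synthetase, also passed as lower (adjusted p = 0.0264), but both its group means (6.48 in Mock and 5.51 in Ad-Epas1) lay below the receptor-gene level of 6.62, so no fold is given. Hacd4, a dehydratase of the elongation family, read 9.83, 10.28 and 10.35 in Mock and 7.73, 7.76 and 9.45 in Ad-Epas1, and it fell by 1.84 (adjusted p = 0.0399). Mecr did not pass without Ad-Epas1 replicate 2 (adjusted p = 0.0502). Hsd17b12 and Acss3 lost theirs when Mock replicate 2 or 3, or Ad-Epas1 replicate 1 or 2, was omitted (adjusted p up to 0.0802 and 0.104). Gpam, Acsl5 and Hacd4 did not pass without any 1 array but Ad-Epas1 replicate 3 (up to 0.123, 0.128 and 0.137), nor Aacs without any 1 of the 6 (up to 0.156). Without Ad-Epas1 replicate 3, 5 of the 38 rose (13.2%, against 10.3% of all genes) and 7 fell (18.4%, against 14.0%).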

How the data were processed

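The authors deposited log2 values, made with RMA (Affymetrix Expression Console 1.3.1) according to the submitters' processing notes. RMA gives all arrays much the same distribution (medians 6.77 to 6.84), which hides any shift common to most genes, and it compresses large changes. For the probe sets no genome build is given in the sources used here.

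Of 41345 probe sets, 23521 had 1 symbol in the platform annotation, 1814 several and 16010 none, and 23328 matched a RefSeq gene table (GRCm38.p6). A gene was represented by its probe set with the highest mean over 6 arrays (1082 genes had several), which left 22180 genes with no filter. Groups followed the sample titles. The test of Ad-Epas1 against Mock was limma 3.58.1 (lmFit, then eBayes) in R 4.3.3, two-sided, Benjamini-Hochberg over all 22180 genes, threshold 0.05. SE is the moderated standard error. The fit was tested on simulated data. The labels state no pairing by replicate number and the fit used none, although the data do not settle whether same-numbered samples were paired. Of the columns, 0 belonged to other samples.

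The genes and lists were chosen with earlier results of these data known. All 40 listed genes are named by role, and of the wider lists those that passed. The fit on dimmer probe sets was added after seeing the data. Alternatives are given in the closing section.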

Additional observations from a re-analysis of the deposited data

How the results depend on the processing

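In 503 repeats under other settings the 36 genes stayed on the same side of the threshold in 454, lost a call in 34 and gained one in 15. The sign of the log2 difference turned in 26 repeats, over 14 genes, 0 of which had been called with all arrays. Array weights moved the number called to 7791 of all genes, 7 sterol, 7 fatty acid, 15 wider sterol and 17 wider fatty acid genes. A per-gene limma test without shared variance gave 1448, 0, 0, 4 and 2. Its counts at an unadjusted p under 0.05 were 4 for sterol and 6 for fatty acid genes, against 6508 of all genes. Leaving out 1 array gave 1181 to 5390 of all genes, 2 to 9 sterol, 0 to 6 fatty acid, 1 to 11 wider sterol and 1 to 12 wider fatty acid genes. The fatty acid count was 0 in limma when Mock replicate 2, Mock replicate 3 or else Ad-Epas1 replicate 2 was omitted. At an unadjusted p under 0.05 those fits had 5, 5 and 6 fatty acid genes, against 5429, 5267 and 5924 of all genes. With replicate number as a block, for which same-numbered samples had deviations correlated at 0.34, -0.19 and 0.21, 3108 of all genes, 4 sterol, 4 fatty acid, 5 wider sterol and 7 wider fatty acid genes passed. Medians over the sterol genes ranged from -0.26 to 0.03 and over the fatty acid genes from -0.55 to -0.20 when 1 array was left out. Acaca did not pass after a quantile step (adjusted p = 0.0781) or after centring each array (0.053), and Scap did not pass after the quantile step (0.071) or as a mean over probe sets (0.189). Signal over background limits Acacb, just above the level of the receptor genes, and Acss3, whose group means lie below it.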

Other observations

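Without Ad-Epas1 replicate 3, genes of the wider fatty acid list that had not passed with all arrays were called in both directions. These genes were picked after their values were seen. Dgat1, which makes triglyceride, rose by 0.70 on the log2 scale (adjusted p = 0.0098), Lpin2, a phosphatidate phosphatase, by 0.97 (adjusted p = 0.00672) and Mlx, the partner of a glucose-sensing transcription factor, by 0.35 (adjusted p = 0.0165). Elovl4, an elongase of very long chains, fell by 0.42 (adjusted p = 0.0168) and Prkaa2, a catalytic subunit of AMP-activated kinase, by 0.49 (adjusted p = 0.0156).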
